A study of Mus musculus with 16 samples.

Results

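The SLAM receptor family of the mouse comprises 9 genes that lie together on chromosome 1 (Slamf1, Slamf6, Slamf7, Slamf8, Slamf9, Cd48, Cd84, Cd244 and Ly9), and its transcripts were followed in splenic B cells of NOD.LT mice on 4 diets. The members are the 9 of 39179 genes in the count table that carry these symbols. The family was chosen by the differences of Slamf1 and Slamf7 between diets in these same counts, so the values of those 2 genes are given as a description without a test, and the other 7 members were tested. All 9 had enough counts to enter the test.

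Every library came from a NOD.LT mouse, a strain that develops autoimmune diabetes, aged 15 weeks and kept on its diet for the last 5 weeks. The diets were HAMSA, HAMSB, HAMS and NP, with 4 libraries each; the labels also call the NP diet Gordons. As background, HAMS is a high-amylose maize starch, and HAMSA and HAMSB are its acetylated and butyrylated forms, which release acetate and butyrate in the large bowel. B cells were isolated from spleen by negative selection, in which antibodies remove other cell types, and their poly(A) RNA was made into stranded libraries. The libraries keep the numbers of the labels (HAMSA 1, 2, 3 and 6; HAMSB 1, 2, 5 and 6; HAMS 1, 4, 5 and 6; NP 1, 3, 4 and 5). The design text gives an N of 4 per diet and, in the same sentence, speaks of triplicates. What animals stand behind these numbers is not stated in the labels, so p-values measure the spread between libraries.

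SLAM receptors are cell surface proteins of the immunoglobulin superfamily, found mainly on blood cells. Most of them bind a second copy of themselves on a neighbouring cell, whereas Cd48, which is held in the membrane by a lipid anchor, binds Cd244 and Cd2. Receptors with tyrosine switch motifs in their tails recruit the small adaptors Sh2d1a (SAP) and Sh2d1b1 (EAT-2), and SAP brings in the kinase Fyn. In lymphoid tissue the family is known for its part in contacts between T and B cells and in the control of antibody responses and autoimmunity.

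The 300 bases around the start of the 2 genes that set the family apart are shown here because their levels moved alike across the diets. The sequences are RefSeq's, on GRCm38.p6, from 250 bases before to 50 bases after the start of transcription, written 5' to 3' on the gene's own strand. Slamf1 lies at chr1:171766882-171767181 on the plus strand and Slamf7 at chr1:171648950-171649249 on the minus strand, where the RefSeq start falls inside the longer gene of GENCODE M21. Capitals mark a match to TGANTCA, the AP-1 motif.
Slamf1: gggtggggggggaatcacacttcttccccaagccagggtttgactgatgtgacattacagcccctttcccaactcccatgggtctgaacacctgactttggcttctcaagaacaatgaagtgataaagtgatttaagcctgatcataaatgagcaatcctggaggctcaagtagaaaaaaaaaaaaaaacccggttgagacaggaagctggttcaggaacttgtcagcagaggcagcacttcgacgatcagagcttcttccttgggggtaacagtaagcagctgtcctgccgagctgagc
Slamf7: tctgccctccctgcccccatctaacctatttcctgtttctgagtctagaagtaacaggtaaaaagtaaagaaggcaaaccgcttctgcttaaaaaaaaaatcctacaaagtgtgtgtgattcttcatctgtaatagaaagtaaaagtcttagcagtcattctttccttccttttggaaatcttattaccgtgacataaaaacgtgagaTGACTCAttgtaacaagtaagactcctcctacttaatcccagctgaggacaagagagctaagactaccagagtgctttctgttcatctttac
The Slamf7 window holds the AP-1 letters TGACTCA beginning 42 bases before the start, and the Slamf1 window holds none of the 6 motifs searched. These were AP-1 (TGANTCA), a heat shock element (GAANNTTC), NF-kappaB (GGGNNTTNC), STAT (TTCNNNGAA), an interferon response factor motif (GAAANNGAA) and an E-box (CACGTG), each on both strands, chosen after the sequences had been seen; the NF-kappaB and interferon response factor motifs were shortened by 1 base after a first search. RefSeq promoters were given for 8 of the 9 members. The AP-1 letters occur in 4 of the 8 (Cd244, Slamf7, Cd84 and Slamf8) and in 7.81% of 32851 mouse promoters. The E-box occurs in 3 of the 8 (Cd244, Slamf9 and Slamf8), against 7.15% of all promoters. NF-kappaB letters occur in the Cd48 and Slamf8 windows, against 15.2% of all promoters, and those of the interferon response factor motif in Cd84 and Slamf8, against 8.56%. The heat shock and STAT letters occur in none of the 8, against 7.86% and 8.30% of all promoters. A match describes the letters only.

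On GRCm38, with the gene spans of GENCODE M21, the family occupies 1031 kb of chromosome 1. It runs from Cd244 (171559193 to 171609746, plus strand) and Ly9 (171588624 to 171607410, minus strand) through Slamf7 (171632403 to 171653035, minus strand), Cd48 (171682009 to 171705258, plus strand), Slamf1 (171767127 to 171801184, plus strand), Cd84 (171839697 to 171890718, plus strand) and Slamf6 (171917515 to 171953170, plus strand). Slamf9 (172475358 to 172478575, plus strand) and Slamf8 (172581758 to 172590568, minus strand) lie apart at the far end. The spans of Ly9 and Cd244 overlap on opposite strands, and the counts were made by strand. Cd48 overlaps an unverified gene and Slamf7 the microRNA gene Mir7683 on the same strand, where reads common to both genes would not be counted. NOD mice carry a SLAM region that differs from the reference strain, so reads from diverged exons may be missing from every library alike.

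Levels are in CPM, counts scaled to a common library size, after TMM scaling, and members were set against each other as CPM per kb of exon. The library totals were 15053965 to 30723337 counts in HAMSA, 34720317 to 46206200 in HAMSB, 31826691 to 37929476 in HAMS and 31707731 to 42752976 in NP. The summed CPM of 8 B cell markers lay between 12300 and 15900 in every library, and that of 7 plasma cell markers between 864 and 2040. Markers of other cells were detected in all 16 libraries. The summed level was 16.2 to 220 CPM for 10 T cell markers and 123 to 469 CPM for 9 macrophage and monocyte markers. Erythroid and neutrophil markers reached their highest sums in HAMSA. The 8 erythroid markers summed to 526 to 6360 CPM in HAMSA, 50.9 to 1490 in HAMSB, 37.8 to 122 in HAMS and 85.9 to 1470 in NP, and 8 neutrophil markers to 70.8 to 296 CPM in HAMSA, 39.3 to 234 in HAMSB, 5.08 to 103 in HAMS and 8.12 to 58.6 in NP. A lower level of a gene in such preparations may mean fewer cells of a type or less RNA per cell, and these cannot be told apart.

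Scaled to exon length, Cd48 and Ly9 were the most abundant SLAM transcripts, followed at a distance by Cd84 and Slamf6. Without that scaling the order differed, with a median CPM of 280 for Ly9, 249 for Slamf6, 157 for Cd84 and 112 for Cd48. The exon lengths used were 1189 bases for Cd48, 3307 for Ly9, 6272 for Cd84 and 10832 for Slamf6. Per kb of exon, Cd48 averaged 95.7 ± 8.80 CPM and Ly9 83.4 ± 5.61 CPM over the 16 libraries (SD). Cd84 averaged 24.5 ± 3.42 and Slamf6 23.1 ± 4.40 CPM per kb. Then came Slamf1 with 4.92 ± 1.40, Slamf7 with 4.10 ± 1.47 and Cd244 with 3.01 ± 0.344 CPM per kb, ahead of Slamf9 with 1.69 ± 0.696 and Slamf8 with 1.16 ± 0.421. The ranges of neighbours in this order overlapped except at 2 steps: Ly9 was above Cd84, and Slamf6 above Slamf1, in all 16 libraries with no overlap. Cd48 and Ly9 together made up 77.3% ± 3.42 of the summed CPM per kb of the family in HAMSA, 72.4% ± 3.20 in HAMSB, 73.9% ± 2.89 in HAMS and 73.0% ± 0.986 in NP (SD, n = 4 each).

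**Figure D1:**
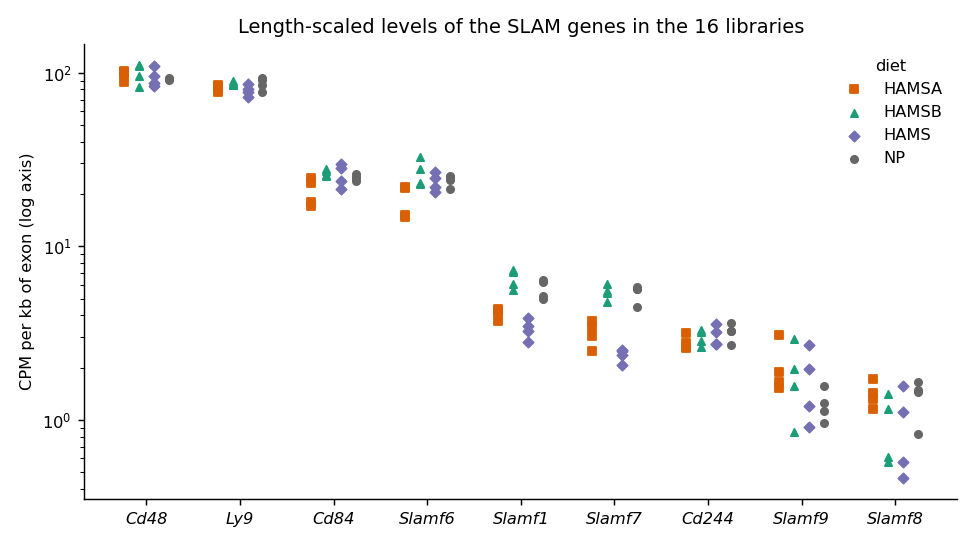
Level of each SLAM gene in CPM per kb of exon (log axis), 1 point per library with HAMSA, HAMSB, HAMS and NP marked apart. Cd48 (mean 95.7) and Ly9 (83.4) lie above Cd84 (24.5) and Slamf6 (23.1), which lie above the other 5.

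Slamf1, also named CD150, is a self-ligand found on activated lymphocytes and on blood stem cells. Its level was 26.9, 23, 26.0 and 25.6 CPM in HAMSA libraries 1, 2, 3 and 6. HAMSB libraries 1, 2, 5 and 6 had 37.2, 34.3, 43.5 and 45.2 CPM. HAMS libraries 1, 4, 5 and 6 had 20.04, 21.5, 17.4 and 23.7 CPM, and NP libraries 1, 3, 4 and 5 had 31.9, 38.3, 39.6 and 30.7 CPM. The diets thus fell into a higher pair, HAMSB and NP, and a lower pair, HAMSA and HAMS, with no library of one pair inside the range of the other. Within each pair the ranges overlapped. Among all genes, the share whose libraries did not overlap was 7.3% in HAMSB against HAMS, 4.01% in HAMSA against HAMS, 8.81% in HAMSA against HAMSB, 12.6% in HAMS against NP, 16.4% in HAMSA against NP and 5.27% in HAMSB against NP. These shares are for single comparisons, and the share of all genes with the joint split into both pairs was not counted.

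As log2 fold changes with the SE of the fit, Slamf1 stood at 0.95 ± 0.12 in HAMSB against HAMS, a 1.94-fold level. The difference was 0.30 ± 0.12 in HAMSA against HAMS and -0.66 ± 0.12 in HAMSA against HAMSB. Relative to NP it was -0.77 ± 0.12 in HAMS, -0.47 ± 0.12 in HAMSA and 0.19 ± 0.12 in HAMSB. The comparisons share groups, so these values are not independent of each other. They are the values that singled out the family and carry no test. In subsets by library number some of them changed by over 1.5 times. The libraries numbered 5 or 6 leave 1 HAMSA and 1 NP library. With these alone HAMSA against NP gave -0.26, and HAMSB against NP gave 0.52 there and -0.04 with numbers 1 to 4. Such subsets cannot tell an effect of number from the scatter of single libraries.

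Slamf7, a self-ligand known from natural killer cells and plasma cells, showed the same division of the diets with a wider span. It had 17, 14, 11.4 and 15.7 CPM in HAMSA libraries 1, 2, 3 and 6. HAMSB libraries 1, 2, 5 and 6 had 24.7, 21.9, 25.3 and 27.8 CPM. HAMS libraries 1, 4, 5 and 6 had 11.4, 9.51, 11.6 and 10.9 CPM, and NP libraries 1, 3, 4 and 5 had 26.6, 26.0, 25.8 and 20.4 CPM. Again no HAMSA or HAMS library reached any HAMSB or NP library, while HAMSA overlapped HAMS and HAMSB overlapped NP. The shares of all genes given for Slamf1 apply here too, and again the joint split was not counted over all genes.

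The log2 fold change of Slamf7 was 1.20 ± 0.13 in HAMSB against HAMS, a 2.29-fold level, and 0.42 ± 0.13 in HAMSA against HAMS. In HAMSA against HAMSB it was -0.78 ± 0.13. Relative to NP it was -1.19 ± 0.13 in HAMS, -0.76 ± 0.13 in HAMSA and 0.01 ± 0.13 in HAMSB. With the libraries numbered 5 or 6 alone, HAMSA against NP gave -0.38, and HAMSB against NP gave 0.37 there and -0.17 with numbers 1 to 4. That subset holds 1 HAMSA library and 1 NP library, NP 5, which was the lowest of its diet in Slamf7. Over the 16 libraries Slamf7 spanned 2.92-fold and Slamf1 2.60-fold between the lowest and the highest library, whereas Ly9 spanned 1.29-fold, Cd48 1.34-fold, Cd244 1.39-fold and Cd84 1.76-fold. Slamf6 spanned 2.23-fold, and the low-count Slamf8 and Slamf9 spanned 3.74-fold and 3.60-fold.

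**Figure D2:**
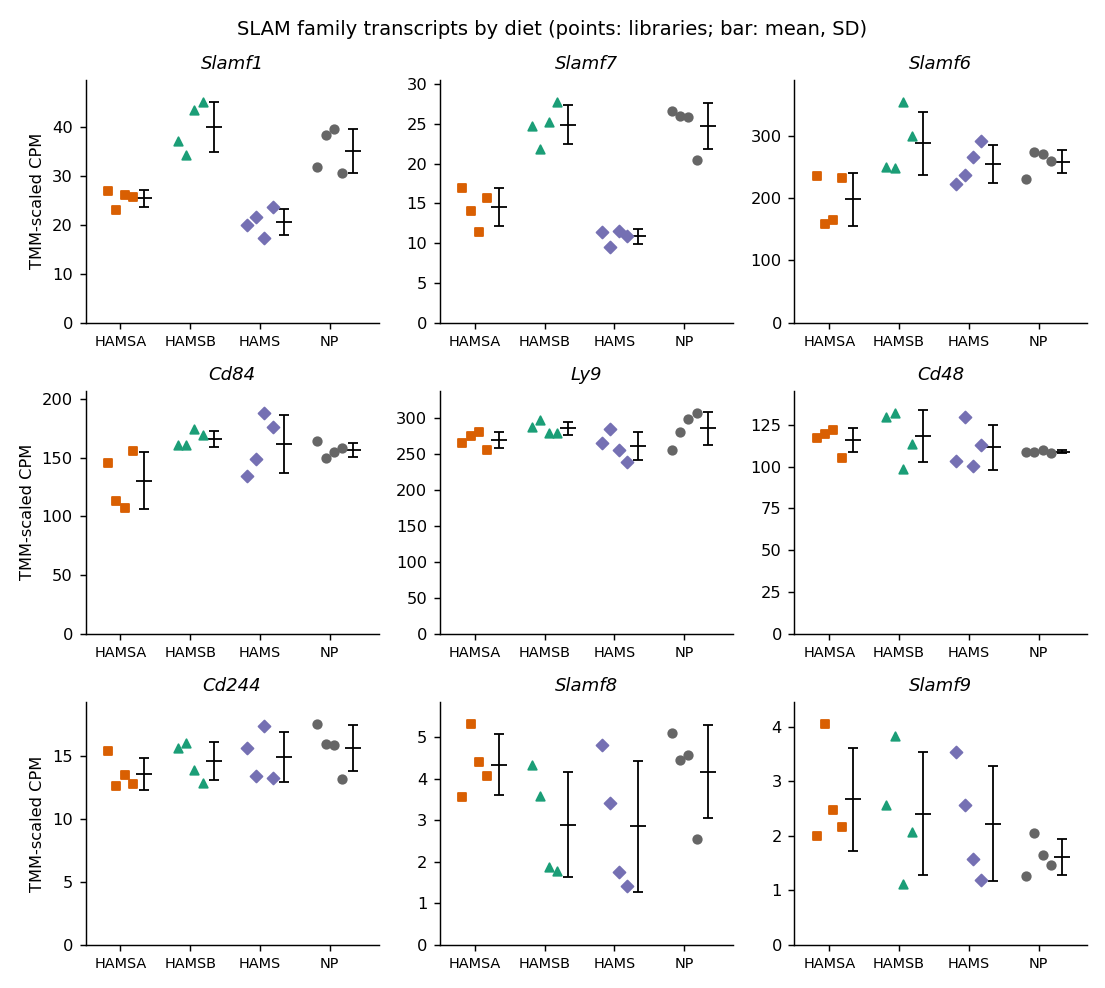
CPM of the 9 SLAM genes in each library by diet (HAMSA, HAMSB, HAMS, NP from left to right), with the mean and SD of 4 libraries. Slamf1 and Slamf7 are the genes in which the HAMSA and HAMS libraries lie apart from the HAMSB and NP libraries.

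Markers of plasma cells and natural killer cells, which are known for Slamf7, were set beside these values. The summed level of the 7 plasma cell markers was 1510 to 2040 CPM in HAMSA, 864 to 1490 in HAMSB, 1160 to 1810 in HAMS and 1180 to 1480 in NP. HAMSA lay above HAMSB and NP and overlapped HAMS, and HAMSB, HAMS and NP overlapped each other. The 9 natural killer cell markers summed to 15.8 to 40.04 CPM in HAMSA, 13.6 to 67.9 in HAMSB, 12.5 to 21 in HAMS and 12.8 to 19.2 in NP, with overlapping ranges. No marker of either list was at 0 in all libraries, although the natural killer marker Gzmb was at 0 in 3 libraries and Klre1 in 2. The 9 macrophage and monocyte markers summed to 217 to 372 CPM in HAMSA, 137 to 391 in HAMSB, 123 to 248 in HAMS and 197 to 469 in NP. In HAMS against NP, 5 of the 9 were called lower, where 2.06% of all genes were. In HAMSA against HAMSB 8 of the 9 fitted values were above 0, while Slamf7 was lower in both comparisons. The part of all these cells in the Slamf1 and Slamf7 values was not tested.

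Counts of one gene set against another in the same library need no scaling between libraries. Per 100 counts of Ly9, Slamf1 had 9.44 ± 0.828 counts in HAMSA, 14 ± 2.20 in HAMSB, 7.95 ± 1.36 in HAMS and 12.3 ± 1.64 in NP (SD, n = 4 each). Slamf7 had 5.41 ± 1.08 counts per 100 of Ly9 in HAMSA, 8.73 ± 1.08 in HAMSB, 4.18 ± 0.578 in HAMS and 8.73 ± 1.58 in NP. HAMSA and HAMS had lower means than HAMSB and NP in these ratios, which reuse the Slamf1 and Slamf7 counts that singled out the family. For Slamf1 the libraries were not split cleanly, since NP 5 at 9.97 lay below HAMSA 1 at 10.2 and HAMSA 6 at 10.01. Slamf7 counts per 100 Slamf1 counts were 57.2 ± 9.03 in HAMSA, 62.5 ± 3.53 in HAMSB, 53.4 ± 10.4 in HAMS and 70.8 ± 8.46 in NP. This last ratio moved much less between diets than either gene did.

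**Figure D3:**
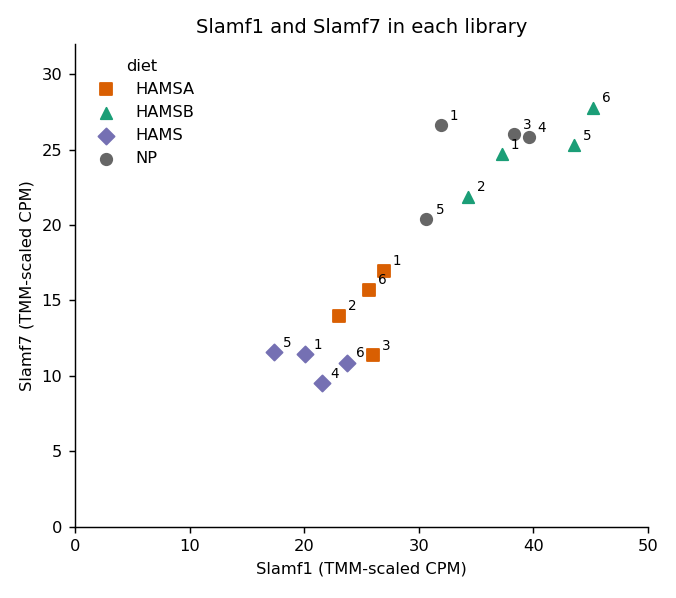
Slamf7 against Slamf1 in CPM, 1 point per library, marked by diet. HAMSA (Slamf1 23 to 26.9) and HAMS (17.4 to 23.7) libraries lie at the lower left, and HAMSB (34.3 to 45.2) and NP (30.7 to 39.6) libraries at the upper right.

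Of the 7 members that did not single out the family, none passed edgeR's quasi-likelihood test in any of the 6 comparisons at a Benjamini-Hochberg adjusted p of 0.05 over the 15021 genes tested. The share of all genes that passed was 1.68% in HAMSB against HAMS, 0% in HAMSA against HAMS, 0.779% in HAMSA against HAMSB, 4.33% in HAMS against NP, 1.41% in HAMSA against NP and 0.0732% in HAMSB against NP. With so few genes called, 0 of 7 is near the background in every comparison. At an unadjusted p under 0.05 the count was 2 of 7 (Slamf6 and Cd84) in each of the 3 comparisons with HAMSA and 0 of 7 in the other 3. Among all genes, 11.7% in HAMSA against HAMS, 19.4% in HAMSA against HAMSB and 25.1% in HAMSA against NP had such a p, as did 14.1% in HAMSB against HAMS, 19.3% in HAMS against NP and 6.89% in HAMSB against NP. DESeq2 called 1 of the 7, Slamf6 in HAMSA against HAMSB, where it called 600 genes in all against 117 by edgeR, and limma voom called 0 of 7 in every comparison. The test of any difference among the 4 diets called 3.78% of all genes and 0 of the 7. Of the 42 differences, 20 were smaller than their own SE.

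Slamf6, called Ly108 in mice, is a self-ligand active between T and B cells. It was measured at 236, 159, 165 and 233 CPM in HAMSA libraries 1, 2, 3 and 6, against 251, 248, 356 and 301 CPM in HAMSB libraries 1, 2, 5 and 6. HAMS libraries 1, 4, 5 and 6 had 223, 238, 267 and 292 CPM, and NP libraries 1, 3, 4 and 5 had 232, 274, 271 and 260 CPM. HAMSA libraries 2 and 3 were the lowest of all 16. HAMSA lay below HAMSB without overlap, as 8.81% of all genes did in either direction, and overlapped HAMS and NP. The log2 difference was -0.54 ± 0.15 in HAMSA against HAMSB (edgeR adjusted p = 0.106, DESeq2 adjusted p = 0.0231), -0.36 ± 0.15 against HAMS (edgeR adjusted p = 0.386) and -0.39 ± 0.15 against NP (edgeR adjusted p = 0.139). For any difference among diets the edgeR adjusted p was 0.142.

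Cd84, a self-ligand of B cells, platelets and follicular helper T cells, gave a similar picture with smaller differences. It had 146, 113, 107 and 156 CPM in HAMSA libraries 1, 2, 3 and 6, against 161, 160, 174 and 169 CPM in HAMSB libraries 1, 2, 5 and 6. HAMS libraries 1, 4, 5 and 6 had 134, 149, 188 and 176 CPM, and NP libraries 1, 3, 4 and 5 had 164, 150, 155 and 158 CPM. HAMSA libraries 2 and 3 were again the lowest of the 16. The log2 difference was -0.35 ± 0.12 in HAMSA against HAMSB (edgeR adjusted p = 0.175, no overlap), -0.31 ± 0.12 against HAMS (edgeR adjusted p = 0.380) and -0.26 ± 0.12 against NP (edgeR adjusted p = 0.195).

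Several measures of the libraries differed on average between HAMSA and the other diets, as both genes did. In HAMSA the fitted values of the erythroid markers were above 0 for 7 of 7 tested against each of the other diets. Those of the neutrophil markers were above 0 for 8 of 8. Of these markers edgeR called 0 erythroid in each comparison, and 1 neutrophil marker in HAMSA against NP alone. Within HAMSA the erythroid sums were 1557, 6361, 526 and 6289 CPM in libraries 1, 2, 3 and 6, where Slamf6 had 236, 159, 165 and 233 CPM. The part of these cells in the Slamf6 and Cd84 values was not tested. The share of reads that fell outside annotated exons was 11.3% ± 1.09 in HAMSA, 14.7% ± 1.93 in HAMSB, 13.8% ± 2.25 in HAMS and 14.8% ± 0.667 in NP (SD, n = 4 each). With this share as a covariate, the log2 difference of Slamf6 was -0.18 in HAMSA against HAMSB, -0.11 against HAMS and -0.03 against NP, and that of Cd84 was -0.13, -0.14 and -0.03 in the same order. The share is itself tied to diet, and its part in the HAMSA values cannot be told apart from that of the diet. The log2 fold change of Slamf7 in HAMSA against HAMSB was -0.78, and -0.59 with the covariate. In HAMSB against HAMS, whose mean shares lay closer together, it was 1.15 with the covariate and 1.15 to 1.27 over all 12 other settings. Slamf7 singled out the family, so its values carry no test.

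**Figure D4:**
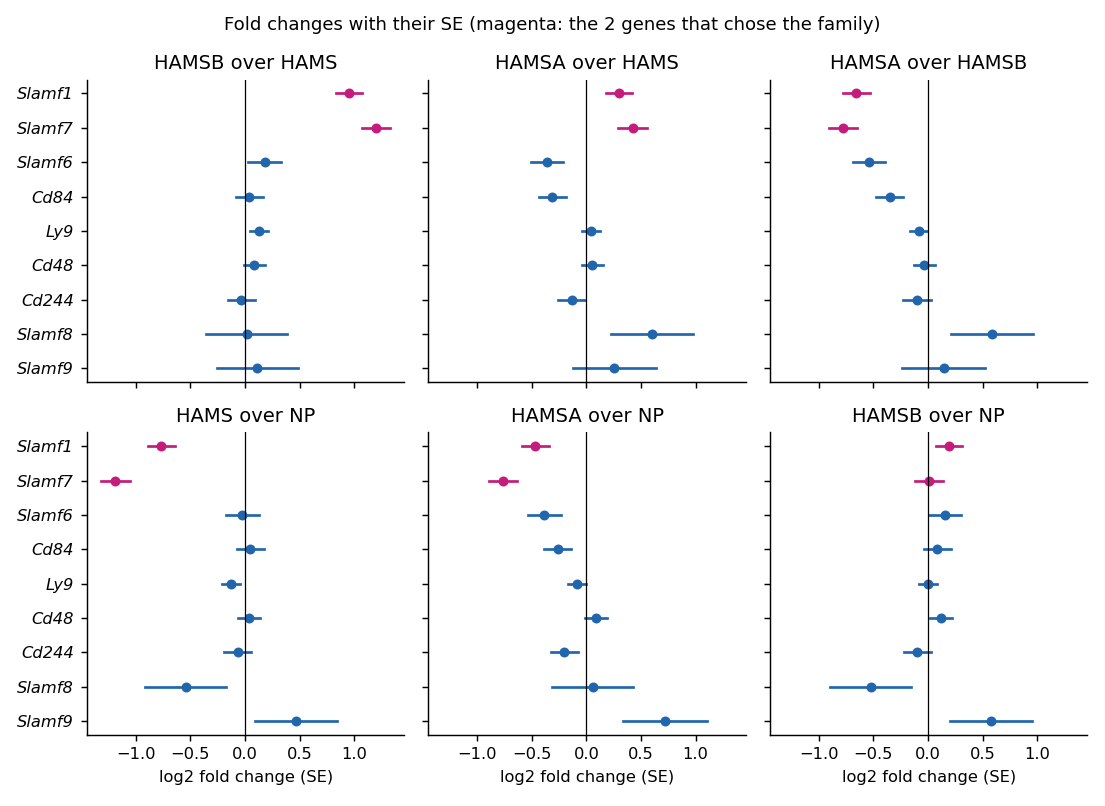
Log2 fold change of each SLAM gene in the 6 comparisons, with bars of 1 SE, the first-named diet over the second. Slamf1 and Slamf7 (magenta, the genes that singled out the family) reach 0.95 and 1.20 in HAMSB against HAMS, and the other 7 stay between -0.54 and 0.72 in all 6 comparisons.

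Ly9, Cd48 and Cd244 had the most even levels. Ly9, a self-ligand that restrains innate-like B cells in mice, had 256 to 282 CPM in HAMSA, 279 to 298 in HAMSB, 239 to 286 in HAMS and 256 to 308 in NP. Its largest differences were 0.13 ± 0.08 on the log2 scale in HAMSB against HAMS (95% interval -0.05 to 0.31, edgeR adjusted p = 0.505) and -0.13 ± 0.08 in HAMS against NP (95% interval -0.31 to 0.05, edgeR adjusted p = 0.407). The ranges of all 4 diets overlapped.

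Cd48 had 105.5 to 122 CPM in HAMSA, 98.8 to 132 in HAMSB, 100.2 to 130 in HAMS and 108 to 110.3 in NP. The 4 NP libraries lay closer together than those of any other diet, with a coefficient of variation of 0.786% against 6.28% in HAMSA, 13.1% in HAMSB and 12% in HAMS. Its largest log2 difference was 0.12 ± 0.10 in HAMSB against NP (95% interval -0.10 to 0.34, edgeR adjusted p = 0.957).

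Cd244, the receptor for Cd48 known as 2B4 on natural killer cells, had 12.6 to 15.4 CPM in HAMSA, 12.8 to 16 in HAMSB, 13.3 to 17.4 in HAMS and 13.2 to 17.5 in NP. Its largest log2 difference was -0.20 ± 0.13 in HAMSA against NP (95% interval -0.48 to 0.07, edgeR adjusted p = 0.317). The intervals of these 3 genes reach 0.31 for Ly9, 0.34 for Cd48 and -0.48 for Cd244 on the log2 scale, so they do not show that the levels were alike.

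Slamf8 and Slamf9, which lack the tyrosine switch motif and are known from macrophages and dendritic cells, had the lowest levels and the widest spread. Slamf8 rested on 44 to 180 counts per library and Slamf9 on 34 to 166. Slamf8 had 3.57, 5.32, 4.39 and 4.07 CPM in HAMSA libraries 1, 2, 3 and 6, against 4.32, 3.58, 1.88 and 1.77 CPM in HAMSB libraries 1, 2, 5 and 6. HAMS libraries 1, 4, 5 and 6 had 4.80, 3.42, 1.75 and 1.42 CPM, and NP libraries 1, 3, 4 and 5 had 5.10, 4.44, 4.58 and 2.54 CPM. The low libraries were those numbered 5 or 6, except HAMSA 6. Slamf9 ranged from 1.99 to 4.04 CPM in HAMSA, 1.12 to 3.83 in HAMSB, 1.20 to 3.53 in HAMS and 1.26 to 2.05 in NP.

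The widest difference of Slamf8 was 0.60 ± 0.38 on the log2 scale in HAMSA against HAMS (95% interval -0.22 to 1.42, edgeR adjusted p = 0.489), and 0.0023 with the covariate for reads outside exons. That of Slamf9 was 0.72 ± 0.38 in HAMSA against NP (95% interval -0.11 to 1.56, edgeR adjusted p = 0.246), and with the outside-exon share as a covariate it was -0.30. The 9 macrophage and monocyte markers moved with library number too. Their summed level was 169 to 469 CPM in the 10 libraries numbered 1 to 4 and 123 to 217 in the 6 numbered 5 or 6. In HAMS against NP, 5 of these 9 markers were called lower and 0 higher, and all 9 fitted values were below 0. Their summed level was 123 to 248 CPM in HAMS against 197 to 469 in NP. In the same comparison Slamf8 differed by -0.54 ± 0.37 on the log2 scale (edgeR adjusted p = 0.454) and Slamf9 by 0.47 ± 0.38 (edgeR adjusted p = 0.537). The 7 dendritic cell markers summed to 77.1 to 126 CPM in the libraries numbered 1 to 4 and 46.8 to 85.1 in those numbered 5 or 6. The part of these cells in the Slamf8 and Slamf9 values was not tested.

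**Figure D5:**
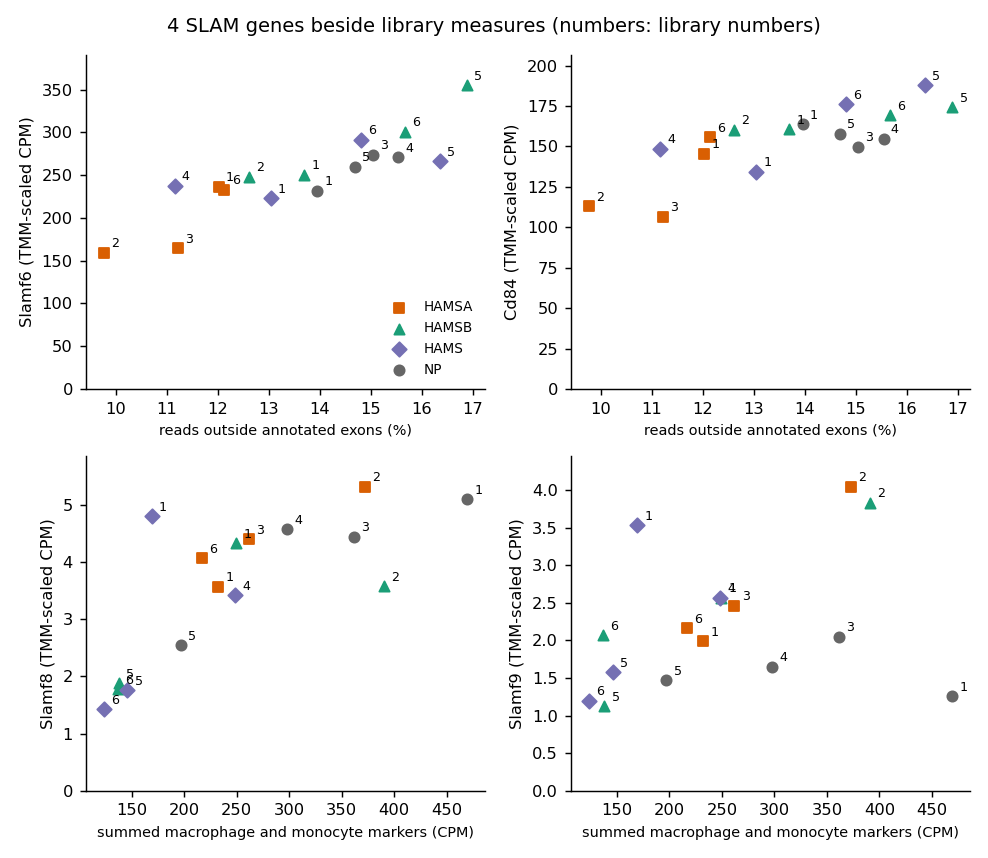
Slamf6 and Cd84 (CPM) against the percentage of reads outside annotated exons, above, and Slamf8 and Slamf9 (CPM) against the summed CPM of macrophage and monocyte markers, below, 1 point per library with its number, marked by diet. HAMSA libraries have the lowest mean percentage (11.3%), and libraries numbered 5 or 6 have marker sums of 123 to 217 CPM and, apart from HAMSA 6, the lowest Slamf8.

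Genes that carry SLAM signals, or bind its members, formed a list of 30, all of which were tested. In HAMS against NP, 2 of the 30 were called lower and 0 higher, with a median log2 fold change of -0.03 against 0.01 over all genes, where 2.06% of genes were called lower. In HAMSA against NP, 1 of the 30 was called higher and 0 lower, with a median of 0.04 against -0.00038 over all genes, where 0.606% were called higher. In the other 4 comparisons 0 of the 30 were called by edgeR. At an unadjusted p under 0.05 edgeR gave 4 in HAMSB against HAMS, 2 in HAMSA against HAMS, 2 in HAMSA against HAMSB and 5 in HAMSB against NP. It gave 6 in HAMS against NP and 6 in HAMSA against NP. The shares of all genes with such a p were 14.1%, 11.7%, 19.4%, 6.89%, 19.3% and 25.1% in the same order. In the first 4 of these comparisons DESeq2 called 0 of the 30, except 2 in HAMSB against NP, and voom called 0.

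Fyn, the kinase that SAP brings to the receptors, had 62.2, 104.8, 89.5 and 97.0 CPM in HAMS libraries 1, 4, 5 and 6, against 126, 128, 149 and 119 CPM in NP libraries 1, 3, 4 and 5. It fell by 0.56 ± 0.13 on the log2 scale in HAMS against NP (edgeR adjusted p = 0.0218), and the libraries did not overlap, as for 12.6% of all genes. Plcg1, a phospholipase that acts downstream of antigen and SLAM receptors, had 73.0, 68.7, 85.2 and 78.5 CPM in HAMS against 99.0, 102, 99.4 and 105.2 CPM in NP. It fell by 0.41 ± 0.09 on the log2 scale (edgeR adjusted p = 0.0175). Without NP 3 or NP 4 neither call was made, the adjusted p of Fyn reaching 0.0876 and that of Plcg1 0.0612, and without HAMS 4 Plcg1 also missed the threshold.

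Lck, a kinase of the same family best known from T cells, had 101, 103, 89.0 and 79.97 CPM in HAMSA libraries 1, 2, 3 and 6 against 66.5, 61.5, 63.1 and 63.4 CPM in NP libraries 1, 3, 4 and 5. It rose by 0.55 ± 0.13 on the log2 scale in HAMSA against NP (edgeR adjusted p = 0.0477). HAMSB had 73.4 to 112 CPM and HAMS 57.2 to 78.6 CPM. The log2 difference was 0.50 ± 0.13 in HAMSB against NP (edgeR adjusted p = 0.226) and 0.05 ± 0.13 in HAMSA against HAMSB. The call in HAMSA against NP held without HAMSA 6. It was lost when any other of the 8 libraries was left out, the adjusted p reaching 0.165. It held in 6 of 12 other settings, and with the covariate for reads outside exons the value was 0.28. Sh2d1a, the adaptor SAP, did not pass, with 0.200 to 1.68 CPM in HAMSA, 0.130 to 2.79 in HAMSB, 0.0539 to 0.711 in HAMS and 0.0233 to 0.276 in NP (edgeR adjusted p = 0.0892 for any difference among diets). The 10 T cell markers had positive fitted values in 10 of 10 in HAMSA and in HAMSB against NP. They had positive values in 9 of 10 in HAMS against NP, with 0 called by edgeR in each of these comparisons. They summed to 39.3 to 171 CPM in HAMSA, 34.5 to 220 in HAMSB, 16.2 to 97.2 in HAMS and 17.6 to 48.0 in NP, with none at 0 in all libraries of a diet. The part of T cells in the Lck and Sh2d1a values was not tested.

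The region around the family holds 32 other protein-coding genes between the members or within 250 kb of one, and 23 of them were tested. In HAMS against NP, 2 of the 23 were called higher and 1 lower, where 2.27% of all genes were called higher and 2.06% lower. The median log2 fold change was -0.02 against 0.01 over all genes. Tagln2, an actin-binding protein, had 178, 169, 115 and 144 CPM in HAMS libraries 1, 4, 5 and 6 against 102, 81.4, 87.7 and 72.1 CPM in NP libraries 1, 3, 4 and 5. It rose by 0.82 ± 0.14 on the log2 scale (edgeR adjusted p = 0.00445). In HAMSA against NP it was the 1 neighbour called, higher by 0.61 ± 0.14 (edgeR adjusted p = 0.0467), where 0.606% of all genes were called higher. The call held in 2 of the 8 omissions of 1 library, with an adjusted p of up to 0.154 without NP 4. With the covariate for reads outside exons the value was 0.25 and the call was lost.

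Dedd, a protein with a death effector domain, rose by 0.28 ± 0.07 on the log2 scale in HAMS against NP (edgeR adjusted p = 0.0370), which held in 1 of 8 omissions and in 6 of 12 other settings. Among the losses, library totals without TMM gave 0.20 and edgeR without a filter left the value at 0.28 with an adjusted p of 0.0973. Kcnj10, a potassium channel, had 0.782, 0.507, 0.351 and 0.0646 CPM in HAMS against 5.86, 5.21, 4.31 and 2.40 CPM in NP. It fell by 3.35 ± 0.68 on the log2 scale (edgeR adjusted p = 0.0118), and the HAMS values rest on 2 to 29 counts. HAMSA had 0.799 to 1.27 CPM and HAMSB 0.0432 to 1.25 CPM. Against NP the log2 difference was -2.09 ± 0.65 in HAMSA (edgeR adjusted p = 0.0865) and -2.86 ± 0.66 in HAMSB (edgeR adjusted p = 0.178). Ncstn, a subunit of gamma-secretase, did not pass in any comparison and had 109 to 126 CPM in HAMSA, 132 to 145 in HAMSB, 121 to 125 in HAMS and 128 to 150.2 in NP. In the other 4 comparisons edgeR called 0 of the 23 neighbours, and at an unadjusted p under 0.05 the count was 5 in HAMSB against HAMS, 2 in HAMSA against HAMS, 7 in HAMSA against HAMSB and 3 in HAMSB against NP, where 14.1%, 11.7%, 19.4% and 6.89% of all genes had such a p.

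Likeness to Slamf1 and to Slamf7 was measured as the root mean square difference of log2 CPM, each gene centred on its own mean, over the 16 libraries, among 10002 genes. Slamf1 and Slamf7 differed from each other by 0.24. For Slamf1 the closest genes were Bcor, a partner of the repressor Bcl6, at 0.11, Hrh2, a histamine receptor, at 0.16, Bcl6 itself at 0.16, Arhgef3 at 0.16 and Chst3, a chondroitin sulfotransferase, at 0.17. The median gene differed by 0.47. For Slamf7 they were Gpr155, an orphan receptor-like protein, at 0.20, Bcor at 0.21, Cd180, a relative of the Toll-like receptors on B cells, at 0.22, Zmiz1, a transcription coactivator, at 0.25 and Il5ra, a subunit of the interleukin 5 receptor, at 0.26. The median gene differed by 0.58.

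Bcor had 90 to 107 CPM in HAMSA, 130 to 166 in HAMSB, 75 to 87.3 in HAMS and 123 to 169 in NP. Gpr155 had 15.6 to 18.6 CPM in HAMSA, 26.5 to 35.7 in HAMSB, 11.3 to 15.3 in HAMS and 23.6 to 30.3 in NP. Both follow the division of diets by their selection, and all values come from the same libraries and scaling. The other members of the family were farther off, at 0.36 (Slamf6) to 0.75 (Slamf9) from Slamf1 and at 0.48 to 0.85 from Slamf7.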

How the data were processed

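STAR, featureCounts (Subread), edgeR and limma are the tools listed, per the submitters' processing notes. Their versions, the genome build and the annotation are not given in the sources used here. As deposited, the authors' count table holds unscaled reads per gene and library, made for reverse-stranded libraries, and each column sums to the assigned reads of the deposited counting summary. Reads on overlapping genes of 1 strand or mapping to several places are left out. Of the 39179 identifiers 37607 matched GENCODE M21 (GRCm38), which gave coordinates and exon lengths.

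The tests were run with edgeR 4.0.16 in R 4.3.3, with filterByExpr at a minimum count of 10, which kept 15021 genes, TMM scaling, 1 mean per diet over all 16 libraries (12 residual degrees of freedom), the quasi-likelihood F-test and Benjamini-Hochberg adjustment over all genes, with a threshold of 0.05. SE came from the F statistic, and 95% intervals used 12 degrees of freedom. Fold changes are first-named diet over second. The members and lists were chosen with earlier results of these data known. Named genes are the 9 members, the list and neighbour genes that passed in any comparison, filled up to 4 by smallest p, and the 5 genes most like Slamf1 and Slamf7. The script was tested on simulated data. Other settings were DESeq2 1.42.0, limma 3.58.1 voom, other scalings and filters, only the 2 diets compared, robust dispersion, a block for library number, subsets by number, the outside-exon share as a covariate, and omission of each library. No 2 libraries were identical. The markers Jchain and Adgre1 had no match and are represented by the older symbols Igj and Emr1.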

Additional observations from a re-analysis of the deposited data

Results flagged for a closer look

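Slamf7 in NP library 5 stood apart from the rest of its diet, at 20.4 CPM against 25.8 to 26.6 CPM in NP libraries 1, 3 and 4. The gap to the nearest library was 0.875 of the whole range of the diet, above the 95% critical value of Dixon's test for 4 samples. It was the 1 such value among 36 sets of 4 libraries examined, and chance gives about 1 in 20. At 20.4 CPM this library still lay above all HAMSA and HAMS libraries in Slamf7.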

How the results depend on the processing

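The other settings were fixed with earlier results of these data known. Slamf1 and Slamf7 kept their direction in all 20 alternatives of 5 of the 6 comparisons, and in HAMSB against NP, near 0, in 19 and 15. Both genes singled out the family and the alternatives reuse the same libraries, so the kept direction is a description and no test. With numbers 1 to 4 alone, Slamf1 gave 0.78 in HAMSB against HAMS, -0.48 in HAMSA against HAMSB and -0.042 in HAMSB against NP, where Slamf7 gave -0.17. With numbers 5 and 6 alone, where HAMSA and NP have 1 library each, the values against NP were as follows. Slamf1 and Slamf7 gave -0.58 and -0.87 in HAMS, -0.26 and -0.38 in HAMSA, and 0.52 and 0.37 in HAMSB. A covariate for the outside-exon share gave -0.59 for Slamf7 in HAMSA against HAMSB and -0.58 in HAMSA against NP, -0.25 for Slamf8 in HAMSA against HAMSB and -0.30 for Slamf9 in HAMSA against NP, the last 2 of them reversed. Slamf6 (-0.062, numbers 1 to 4) and Cd48 (-0.034, numbers 5 and 6) in HAMSB against NP and Slamf9 in HAMS against NP (-0.090, numbers 5 and 6) reversed too. Members called rose to 1 of 7, Slamf6, in HAMSA against HAMSB with DESeq2 and in HAMSA against NP with numbers 1 to 4 (edgeR adjusted p = 0.0467). The signalling count in HAMSA against NP was 5 with DESeq2, 2 with only the 2 diets compared, 4 with numbers 1 to 4, and 0 with voom, library totals, no filter, the covariate and numbers 5 and 6. In HAMS against NP it was 4 with the covariate, 1 with only the 2 diets and 0 with numbers 5 and 6, and in HAMSB against NP 2 with DESeq2 and 1 with numbers 1 to 4. Leaving out 1 library gave 0 to 2 in HAMS against NP and 0 to 1 in HAMSA against NP. The cause was not tested. Genes called among all tested moved from 252 to between 74 and 603 in HAMSB against HAMS, from 0 to between 0 and 103 in HAMSA against HAMS, from 117 to between 0 and 600 in HAMSA against HAMSB, from 650 to between 37 and 1264 in HAMS against NP, from 212 to between 0 and 2694 in HAMSA against NP, and from 11 to between 0 and 124 in HAMSB against NP.

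Of 15 pairs of libraries with the same number, 8 had a correlation of deviations above 0.1 (range -0.25 to 0.491). Of the 16 libraries, 2 were closest to one of their own number. Correlations of pairs with different numbers are not set beside these, so the values do not decide whether library numbers pair the samples. With the replicate block, 0 of the 7 members were called in each comparison, 0 signalling genes in HAMSA against NP, and 163 genes of all in HAMSB against HAMS. Slamf8 and Slamf9 rest on at most 180 counts per library, which limits what can be seen in them.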
